A study of Mus musculus with 18 samples.

Results

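Marker genes of 4 cell types that surround or line the hepatocytes of the liver were followed in cultures of primary mouse hepatocytes. The list named 36 genes, of Kupffer cells (the resident macrophages), endothelial cells, stellate cells and cholangiocytes (the bile duct cells). A gene was taken as measured where a probe set in the part of the deposited values used here was annotated to it alone. The brightest such probe set, by its mean over all arrays, stood for the gene. In this way 27 of the 36 genes were measured, out of 15491 genes in all. The cells were isolated from C57BL/6J mice and infected with adenovirus for 48 hours. The vector arm received the empty vector, and the other arms received a vector for PGC-1a1, the full-length form of the coactivator PGC-1alpha, or for PGC-1a4, a shorter splice form of it. GFP was made from a separate reading frame in every arm, so all groups share infection, GFP and the culture conditions. Each arm was then given either PBS or 2 ng/mL TNFalpha for 2 hours, which makes 6 groups of 3 Affymetrix arrays.

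A culture of isolated hepatocytes can carry over a few nonparenchymal cells, and the markers of those cells are a usual check of its purity. The same genes also bear on dedifferentiation: hepatocytes in culture lose liver-specific expression and take on features of biliary, progenitor or mesenchymal cells, among them Krt19, Sox9 and Cd44. Krt8 and Krt18 belong to both worlds, since they pair into the keratin filaments of hepatocytes and of bile duct cells alike. In whole-culture RNA, fewer cells of a type and less RNA per cell cannot be told apart.

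The measured genes comprised 3 of 8 Kupffer, 6 of 8 endothelial, 10 of 11 stellate and 8 of 9 cholangiocyte markers. Clec4f, Adgre1, Cd68, Marco, Vsig4, Kdr, Stab1, Timp1 and Spp1 were not analysed here, so the Kupffer list lacks most of its defining genes. Values are log2 levels from RMA, a method that corrects, normalizes and summarises the probes of a set. A level has no true zero, and levels of different genes are not set against each other as amounts. As a gauge of background, 21 genes of retina, testis, pituitary and other distant tissues had group means of 3.77 to 8.55, with a median of 5.93 and an upper quartile of 7.02. In all 6 groups 7 markers stayed below that quartile, namely Cd163, Tek, Col1a2, Lrat, Dcn, Lum and Krt7, and only 5 stayed above the highest of these distant genes, namely Cd14, Col4a1, Sparc, Krt8 and Krt18. The hepatocyte gene Alb (albumin) had group means of 15.55 to 15.68, near the top of the scale, whose highest value was 15.99. No endothelial marker and, of the Kupffer markers, only Cd14 was among these 5, and Cd163 and Tek lay at the bottom of the scale in every group. The bar for these 5 was the highest distant gene in any group (8.55). Set against the highest distant gene of each group by itself (8.20 to 8.55), Eng and Csf1r also lay above it in all 6 groups.

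The arrays fell into separate sets by treatment. Array medians were 7.24 to 7.32 under PBS and 7.04 to 7.10 under TNF, and values were spread more widely on the TNF arrays (SD 2.24 to 2.32) than on the PBS arrays (2.06 to 2.14). Treatment and array set cannot be told apart, so the virus comparisons below are made within a treatment. The labels do not say whether the arrays within a group stem from different animals or culture dishes, so each p-value weighs differences against a spread that may be only technical. Differences are log2 differences ± SE with 3 arrays per group, tested with limma over all 15491 genes, and a gene passed at an adjusted p under 0.05.

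Under TNF, most measured genes of the cholangiocyte list had less RNA in PGC-1a1 cultures than in either other arm. These genes are not all particular to bile ducts, since hepatocytes also make Krt8 and Krt18, and Krt20 is best known from gut epithelium. Against vector, 6 of the 8 measured cholangiocyte markers were lower (Krt20, Cd44, Sox9, Krt19, Krt8 and Krt18) and 1, Epcam, was higher on its brightest probe set but lower on the other. Against PGC-1a4, these 6 genes were lower and 0 were higher. The median difference of the 8 genes was -0.97 against vector and -1.03 against PGC-1a4, where the median over all genes was -0.03 and -0.02. Among all 27 markers, 16 passed against vector, 2 higher and 14 lower, where 41.3% of all genes passed, 20.8% higher and 20.5% lower. Against PGC-1a4, 8 markers passed and all 8 were lower, where 36.5% of all genes passed, 15.2% higher and 21.3% lower.

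Krt20, a keratin best known from gut epithelium, had the widest gap to vector. Its level was 9.45, 9.73 and 9.60 on the vector TNF arrays, 9.10, 9.02 and 8.98 with PGC-1a4 and 7.21, 6.82 and 6.90 with PGC-1a1. The PGC-1a1 arrays lay far below both other groups, and the 3 groups did not overlap. The difference of PGC-1a1 from vector was -2.62 ± 0.12 (adjusted p = 1.03e-11), and from PGC-1a4 it was -2.06 ± 0.12 (adjusted p = 4.66e-10). The PGC-1a1 mean of 6.98 lay below the upper quartile of the distant-tissue genes in that group (7.11), so no fold is given. PGC-1a4 was itself lower than vector by -0.56 ± 0.12 (adjusted p = 0.00141). Under PBS the 9 arrays of the 3 arms ran only from 7.24 to 7.66, and no difference between arms in Krt20 passed the test.

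Cd44, the hyaluronan receptor that marks progenitor and dedifferentiating cells, had levels of 9.95, 9.89 and 9.89 with vector under TNF and of 10.26, 10.28 and 9.96 with PGC-1a4. With PGC-1a1 they were 7.63, 7.67 and 7.78. Every PGC-1a1 array was thus more than 2 log2 units below every array of the other arms. The differences were -2.22 ± 0.16 (adjusted p = 3.21e-09) from vector, which is 4.65-fold lower, and -2.47 ± 0.16 (adjusted p = 1.62e-09) from PGC-1a4. A further probe set of Cd44 gave -1.91 ± 0.13 and -2.35 ± 0.13 in the same comparisons. A remaining one, with a mean level of 4.48 at the bottom of the scale, gave -0.07 ± 0.14 against vector and did not pass.

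Sox9, the transcription factor of the bile duct and progenitor lineage, read 8.69, 8.66 and 8.69 with vector under TNF. It read 8.34, 8.59 and 8.38 with PGC-1a4 and 6.60, 7.10 and 6.95 with PGC-1a1. Again the PGC-1a1 arrays stood alone at the low end. Their mean of 6.88 lay below the upper quartile of the distant-tissue genes in that group (7.11), as for Krt20, so no fold is given. The gap to vector was -1.80 ± 0.12 (adjusted p = 9.95e-10), and the gap to PGC-1a4 was -1.55 ± 0.12 (adjusted p = 1.15e-08). The dimmer probe set of Sox9 moved the same way by less, with -0.77 ± 0.12 from vector and -0.42 ± 0.12 from PGC-1a4.

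Krt19, the keratin by which bile ducts are usually stained, spread more among the vector TNF arrays, at 8.80, 8.94 and 8.20. The PGC-1a4 arrays held 8.63, 8.67 and 8.58 and the PGC-1a1 arrays 7.73, 7.58 and 7.35. Even the lowest vector array was above the highest PGC-1a1 array, and Krt19 was lower by -1.09 ± 0.15 (adjusted p = 1.08e-05) against vector and by -1.08 ± 0.15 (adjusted p = 1.64e-05) against PGC-1a4.

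Krt8 and Krt18, the partner keratins of the hepatocyte cytoskeleton, were the brightest markers, and both were lower with PGC-1a1 under TNF. Krt8 read 14.66, 14.73 and 14.61 with vector under TNF, 14.80, 14.83 and 14.77 with PGC-1a4 and 13.88, 13.77 and 13.82 with PGC-1a1. Krt18 read 14.49, 14.54 and 14.50, then 14.39, 14.41 and 14.35, and 13.77, 13.69 and 13.54 in that order of arms. For both genes the PGC-1a1 arrays were below all 6 others and the spread within a group was small. Krt8 was lower than vector by -0.84 ± 0.067 (adjusted p = 1.4e-08), and its 2 further probe sets gave -0.93 ± 0.073 and -0.86 ± 0.075. Krt18 was lower by -0.84 ± 0.071 (adjusted p = 3.03e-08). Against PGC-1a4 the differences were -0.98 ± 0.067 for Krt8 and -0.71 ± 0.071 for Krt18, with adjusted p = 3.8e-09 and 3.86e-07.

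**Figure D1:**
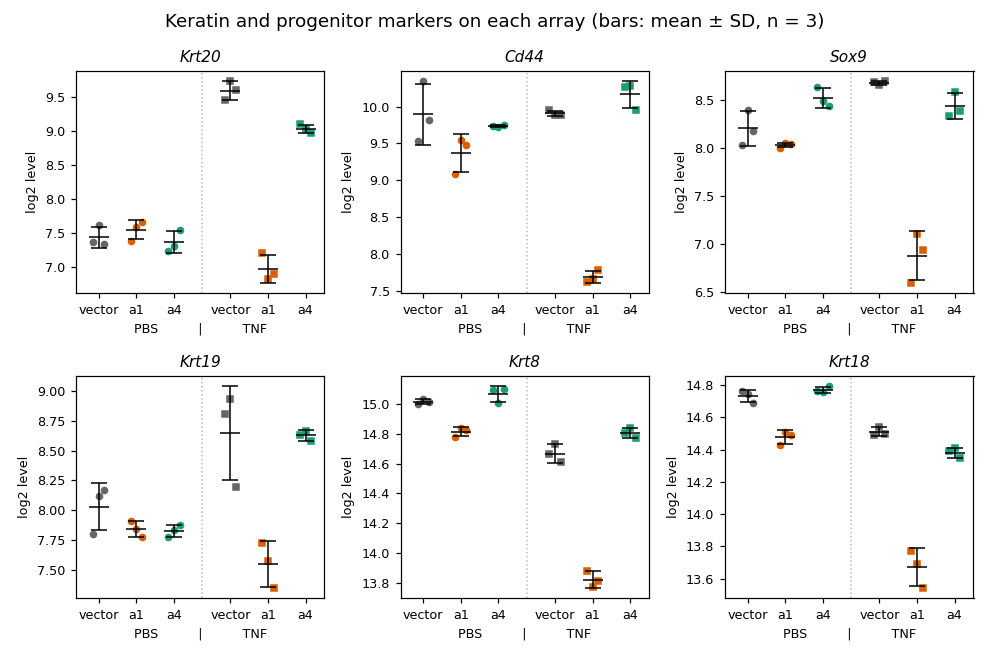
Log2 level of 6 genes of the cholangiocyte list on each of 18 arrays, by virus (vector, a1 for PGC-1a1, a4 for PGC-1a4) and treatment, with the scale differing between genes. Each point is an array, and bars give mean ± SD (n = 3); under TNF the 3 PGC-1a1 arrays lie below the arrays of the other arms in every panel, for Krt20 between 6.82 and 7.21 against 8.98 to 9.73.

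The other cholangiocyte markers did not follow. Krt7, at 5.01 to 6.32 on the 9 TNF arrays, lay below the upper quartile of the distant-tissue genes in every group and passed in no comparison. For Epcam, an epithelial adhesion molecule, the probe sets went opposite ways. The brightest had levels of 7.79 to 7.90 with vector and 8.15 to 8.20 with PGC-1a1 under TNF, a difference of 0.35 ± 0.095 (adjusted p = 0.0066), whereas the other was lower by -0.66 ± 0.14 (adjusted p = 0.00127, adjusted over all probe sets annotated to 1 gene). The Epcam call thus holds for 1 of its 2 probe sets, and their mean differed by -0.15 and did not pass.

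Promoter stretches of the keratins and of Cd44 are shown because these genes were all lower with PGC-1a1 than with vector or PGC-1a4 under TNF, a cytokine that acts through the transcription factors NF-kB and AP-1. The sequences are the 250 bases before the first listed start in RefSeq, build GRCm38.p6, written 5′ to 3′ on the gene's strand. They lie at chr15:102004343-102004592 (minus strand) for Krt8, chr15:102027966-102028215 (plus strand) for Krt18, chr11:99438154-99438403 (minus strand) for Krt20 and chr2:102901666-102901915 (minus strand) for Cd44. Krt8 and Krt18 are neighbours on chromosome 15 that are transcribed away from each other. Capitals mark matches, on either strand, to a loose form of the NF-kB motif, GGG and CC with any 5 bases between them, and overlapping matches run together.
Krt8: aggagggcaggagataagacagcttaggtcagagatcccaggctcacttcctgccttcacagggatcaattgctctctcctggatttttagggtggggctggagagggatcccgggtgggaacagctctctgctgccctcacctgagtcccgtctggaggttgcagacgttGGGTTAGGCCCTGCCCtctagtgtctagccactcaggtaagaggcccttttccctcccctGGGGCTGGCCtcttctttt
Krt18: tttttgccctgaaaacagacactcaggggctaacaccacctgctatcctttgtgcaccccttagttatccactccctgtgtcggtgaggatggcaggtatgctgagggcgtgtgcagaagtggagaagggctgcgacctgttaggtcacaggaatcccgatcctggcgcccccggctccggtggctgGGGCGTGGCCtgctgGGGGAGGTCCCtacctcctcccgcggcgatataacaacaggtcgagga
Krt20: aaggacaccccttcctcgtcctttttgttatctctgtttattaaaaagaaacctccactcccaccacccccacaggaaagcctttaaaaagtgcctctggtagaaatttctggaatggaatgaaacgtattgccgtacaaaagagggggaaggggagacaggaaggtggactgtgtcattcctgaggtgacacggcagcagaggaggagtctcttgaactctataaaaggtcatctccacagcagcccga
Cd44: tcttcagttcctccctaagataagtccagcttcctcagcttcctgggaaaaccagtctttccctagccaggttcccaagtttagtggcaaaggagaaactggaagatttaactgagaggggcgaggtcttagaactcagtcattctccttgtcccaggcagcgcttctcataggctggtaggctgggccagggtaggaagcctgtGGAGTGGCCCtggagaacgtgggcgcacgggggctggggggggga
Krt8 held 4 matches, Krt18 held 3, Cd44 held 1 and Krt20, the marker with the widest gap to vector, held 0 in these stretches. The AP-1 motif TGANTCA was in none of the 4. Of the 27 measured markers 16 had a promoter entry, and over the whole 300 bases of an entry (250 before and 50 after the start) 12 of these (75%) held the NF-kB form against 50.41% of 27025 RefSeq promoters. TGANTCA was in 0 of the 16 against 7.933%, and the E-box form CANNTG in 68.75% against 72.15%. These letter matches are a description and say nothing on binding.

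Under TNF some markers of endothelial, Kupffer and stellate cells were lower with either PGC-1a form than with vector. With PGC-1a1, 4 of 6 endothelial, 1 of 3 Kupffer and 3 of 10 stellate markers were lower, where 20.5% of all genes were. With PGC-1a4 these were 3, 1 and 4, where 12.3% of all genes were lower. In each comparison 1 stellate marker was higher, and with PGC-1a4 also 1 Kupffer marker. Of all genes, 20.8% were higher with PGC-1a1 and 21.1% with PGC-1a4. PGC-1a4 against vector had 11 of 27 markers past the threshold, 2 higher and 9 lower, where 33.5% of all genes passed, 21.1% higher and 12.3% lower. Lyve1, Cdh5, Eng, Csf1r, Col3a1 and Sparc were lower and Col4a1 was higher in both comparisons, which share the vector TNF arrays, so that a high vector array enters both. Compared directly, PGC-1a1 and PGC-1a4 differed in 0 of the 6 endothelial markers in limma (2 at an unadjusted p under 0.05). They differed in 1 of 3 Kupffer markers (Cd14) and in 1 of 10 stellate markers (Col4a1). In that comparison 36.5% of all genes passed.

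Lyve1, the hyaluronan receptor of sinusoidal and lymphatic endothelium, read 10.26, 10.05 and 10.21 with vector under TNF. With PGC-1a4 it read 9.57, 9.35 and 9.45, and with PGC-1a1 9.22, 9.18 and 9.03. The groups stood in that order without overlap. Lyve1 was lower than vector by -1.03 ± 0.14 (adjusted p = 8.77e-06) with PGC-1a1 and by -0.72 ± 0.14 (adjusted p = 0.000632) with PGC-1a4. Between the 2 forms the difference was -0.31 ± 0.14 (adjusted p = 0.0918).

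Cdh5, the cadherin of endothelial junctions, read 8.76, 8.92 and 9.04 with vector, 8.10, 8.28 and 8.09 with PGC-1a4 and 8.0, 7.95 and 7.87 with PGC-1a1. The vector arrays were the high ones, and the 2 PGC-1a groups lay next to each other. Cdh5 was lower by -0.97 ± 0.12 (adjusted p = 4.26e-06) with PGC-1a1 and by -0.75 ± 0.12 (adjusted p = 0.000148) with PGC-1a4. Its dimmer probe set, at a mean level of 6.15, did not pass in either comparison, with -0.11 ± 0.17 and -0.14 ± 0.17.

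Eng, the endothelial co-receptor for TGF-beta ligands, read 8.57, 9.28 and 9.20 with vector, 8.42, 8.31 and 8.31 with PGC-1a4 and 8.28, 8.65 and 8.43 with PGC-1a1. Its lowest vector array overlapped the PGC-1a1 arrays. Eng was lower by -0.56 ± 0.14 (adjusted p = 0.00361) with PGC-1a1 and by -0.67 ± 0.14 (adjusted p = 0.00139) with PGC-1a4. Fitted on the compared arrays alone, the first of these did not pass (adjusted p = 0.0744), while a further probe set of Eng was lower by -0.62 ± 0.11 and -0.35 ± 0.11.

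Among the remaining endothelial markers, Tek, an angiopoietin receptor at the bottom of the scale (5.10 to 5.80 under TNF), was lower with PGC-1a1 by -0.42 ± 0.11 (adjusted p = 0.00488). With PGC-1a4 its difference was -0.16 ± 0.11 (adjusted p = 0.287). Stab2, a scavenger receptor of the liver sinusoid, and Pecam1, an adhesion molecule of endothelium and platelets, passed in neither comparison. Stab2 differed by 0.21 ± 0.15 and -0.08 ± 0.15 and Pecam1 by -0.16 ± 0.23 and -0.34 ± 0.23 with PGC-1a1 and PGC-1a4.

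Of the Kupffer markers, Csf1r, the receptor for the macrophage growth factor CSF1, read 9.29, 9.48 and 9.02 with vector, 8.48, 8.63 and 8.21 with PGC-1a4 and 8.76, 8.53 and 8.35 with PGC-1a1. Again only the vector arrays stood high. The brightest probe set was lower by -0.71 ± 0.13 (adjusted p = 0.000284) with PGC-1a1 and by -0.82 ± 0.13 (adjusted p = 0.000133) with PGC-1a4. The 2 further probe sets of Csf1r did not pass in either comparison, and the mean of its probe sets differed by -0.24 with PGC-1a1 (adjusted p = 0.068). Cd163, a macrophage haemoglobin scavenger receptor at 4.39 to 5.19 under TNF, passed in neither.

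Cd14, the co-receptor for bacterial lipopolysaccharide, which hepatocytes also make, set the 2 forms apart. It read 11.06, 11.08 and 11.00 with vector under TNF, 11.53, 11.58 and 11.58 with PGC-1a4 and 10.85, 10.87 and 10.99 with PGC-1a1. PGC-1a4 was the high group, by 0.52 ± 0.12 over vector (adjusted p = 0.00377), and PGC-1a1 differed from it by -0.66 ± 0.12 (adjusted p = 0.000373). PGC-1a1 and vector did not overlap but differed by only -0.14 ± 0.12 (adjusted p = 0.395).

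Among stellate markers, Col3a1, a fibrillar collagen chain, read 8.78, 8.84 and 8.51 with vector, 7.88, 7.88 and 7.97 with PGC-1a4 and 7.76, 7.82 and 7.46 with PGC-1a1. It was lower by -1.03 ± 0.11 (adjusted p = 5.2e-07) with PGC-1a1 and by -0.80 ± 0.11 (adjusted p = 2.75e-05) with PGC-1a4. A further Col3a1 probe set at the bottom of the scale, with a mean level of 4.28, passed in neither. The vector arrays were again the high ones for Col3a1 and, as follows, for Sparc.

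Sparc, a collagen-binding matrix protein, read 9.97, 9.91 and 9.87 with vector, 9.13, 9.09 and 9.26 with PGC-1a4 and 9.26, 9.06 and 9.12 with PGC-1a1. The differences were -0.77 ± 0.079 (adjusted p = 2.95e-07) and -0.76 ± 0.079 (adjusted p = 1.72e-06) for PGC-1a1 and PGC-1a4. The 2 forms overlapped on the brightest probe set, at -0.01 ± 0.079 between them. The further Sparc probe set put PGC-1a1 lower than PGC-1a4 by -0.34 ± 0.11.

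Col4a1, a chain of basement membrane collagen, ran the other way. It read 9.71, 9.61 and 9.59 with vector under TNF, 10.07, 10.09 and 9.95 with PGC-1a1 and 10.57, 10.57 and 10.50 with PGC-1a4. The 3 groups rose in that order without overlap. Col4a1 was higher than vector by 0.40 ± 0.080 (adjusted p = 0.000577) with PGC-1a1 and by 0.91 ± 0.080 (adjusted p = 3.9e-07) with PGC-1a4, and the forms differed by -0.51 ± 0.080 (adjusted p = 6.19e-05). Under PBS the 9 arrays held 10.33 to 10.70, so the PGC-1a4 TNF arrays lay within the PBS range and the vector TNF arrays were below it.

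Of the other stellate markers, 3 passed in 1 comparison each. Des, the muscle-type intermediate filament of stellate cells, was lower with PGC-1a4 by -0.47 ± 0.099 (adjusted p = 0.00128), a call lost when its probe sets were averaged (-0.21). Col1a1, the main chain of type I collagen, was lower with PGC-1a4 by -0.43 ± 0.15 (adjusted p = 0.0356) with overlapping arrays. It did not pass with the replicate number as a block (adjusted p = 0.0612), without vector replicate 1 (-0.30), without vector replicate 2 (-0.44) or without PGC-1a4 replicate 1 (-0.27). Pdgfrb, the PDGF receptor of stellate cells and pericytes, was lower with PGC-1a1 by -0.33 ± 0.13 (adjusted p = 0.0468), a call lost without vector replicate 2 or 3 or any PGC-1a1 replicate (-0.22 to -0.37). Col1a2, Lrat, Dcn and Lum passed in neither comparison.

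**Figure D2:**
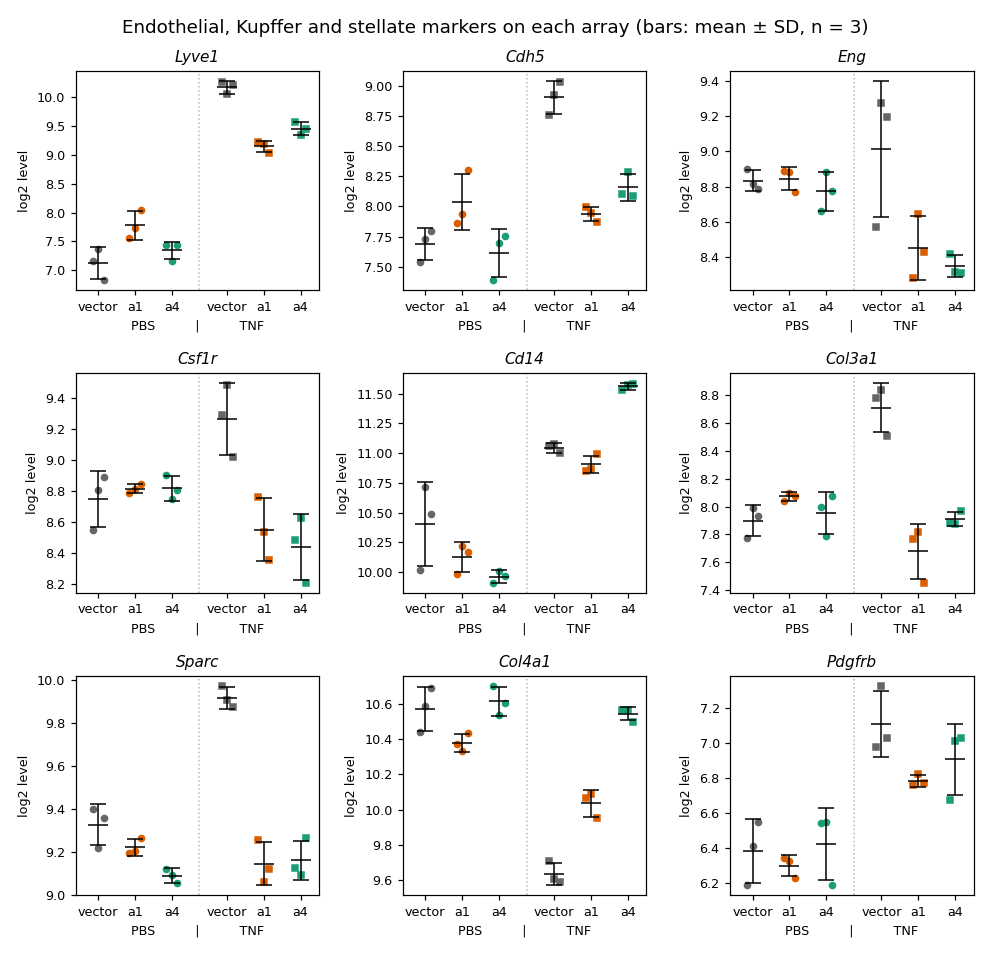
Log2 level of 9 endothelial, Kupffer and stellate markers on each of 18 arrays, by virus (vector, a1 for PGC-1a1, a4 for PGC-1a4) and treatment, with the scale differing between genes. Each point is an array, and bars give mean ± SD (n = 3); under TNF the vector arrays are the highest group for Lyve1, Cdh5, Csf1r, Col3a1 and Sparc and the lowest for Col4a1.

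Further genes of the same cell types, from lists that are not the markers, are given beside these results. Of all genes, 20.5% were lower and 20.8% higher with PGC-1a1 than with vector under TNF, and 12.3% and 21.1% with PGC-1a4. On that background, 8 of 15 other endothelial genes were lower and 1 higher with PGC-1a1 than with vector, led by Bmp2 (-1.02 ± 0.14), and 7 were lower and 1 higher with PGC-1a4. Of 10 other macrophage genes, 4 were lower and 1 higher with PGC-1a1, and 1 was lower and 2 higher with PGC-1a4. Of 23 other stellate and fibroblast genes, 11 were lower and 0 higher with PGC-1a1, led by Vim (-2.09 ± 0.085), a mesenchymal intermediate filament, Tgfb1 (-1.33 ± 0.16) and Ccn2 (-1.13 ± 0.14). With PGC-1a4, 6 of them were lower and 5 higher. Of 12 other cholangiocyte genes, 5 were lower and 3 higher with PGC-1a1, with a list median of -0.02. The 3 with the smallest adjusted p were Cdh1 (1.69 ± 0.11), the epithelial cadherin, Anxa2 (-0.77 ± 0.070) and Krt23 (1.19 ± 0.13), a stress keratin. Biliary genes outside the markers thus did not share 1 direction.

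The mean level of a list puts these counts on 1 scale per array. The 8 cholangiocyte markers averaged 9.82 to 10.09 on the vector TNF arrays, 9.85 to 9.92 with PGC-1a4 and 8.69 to 8.81 with PGC-1a1. The 6 endothelial markers averaged 7.99 to 8.15, 7.51 to 7.66 and 7.47 to 7.68 in the same order, and the 15 other endothelial genes 7.37 to 7.45, 7.06 to 7.19 and 7.06 to 7.19. The 10 stellate markers averaged 7.36 to 7.57, 7.15 to 7.31 and 7.12 to 7.26. Averages of the 21 distant-tissue genes were also slightly lower, at 6.03 to 6.10 with vector, 5.88 to 5.97 with PGC-1a4 and 5.90 to 5.98 with PGC-1a1, and 4 of these 21 were lower and 1 higher with PGC-1a1. The part of this background shift in the faint markers was not tested.

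Of 18 hepatocyte genes under TNF, 7 were higher, 0 lower and 11 not past the threshold with PGC-1a1 against vector, and 12 were higher and 0 lower with PGC-1a4. The shares past the threshold were 38.9% and 66.7%, where 41.3% and 33.5% of all genes passed, and the median differences of the list were 0.18 and 0.42. Hnf4a, the factor that maintains hepatocyte identity, had the largest positive difference of the list in both comparisons. It averaged 8.99 in the vector arm, 11.23 in the PGC-1a1 arm and 10.69 in the PGC-1a4 arm under TNF. Under PBS Hnf4a averaged 11.77, 11.44 and 12.06 in that order, so every TNF mean lay below every PBS mean. Other genes of the list were not higher with PGC-1a1 than with vector under TNF. In the same order of arms, Cebpa averaged 9.01, 8.93 and 9.60 and Fgb 11.31, 11.08 and 12.20. Compared with PGC-1a4 under TNF, PGC-1a1 had 1 of the 18 higher and 5 lower, with a list median of -0.17. That is 33.3%, where 36.5% of all genes passed. Under PBS, PGC-1a1 had 0 higher and 4 lower against vector (22.2%, where 12% of all genes passed). Against PGC-1a4 under PBS it had 0 higher and 6 lower (33.3%, where 17.4% passed). The part of hepatocyte genes in the marker differences was not tested.

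**Figure D3:**
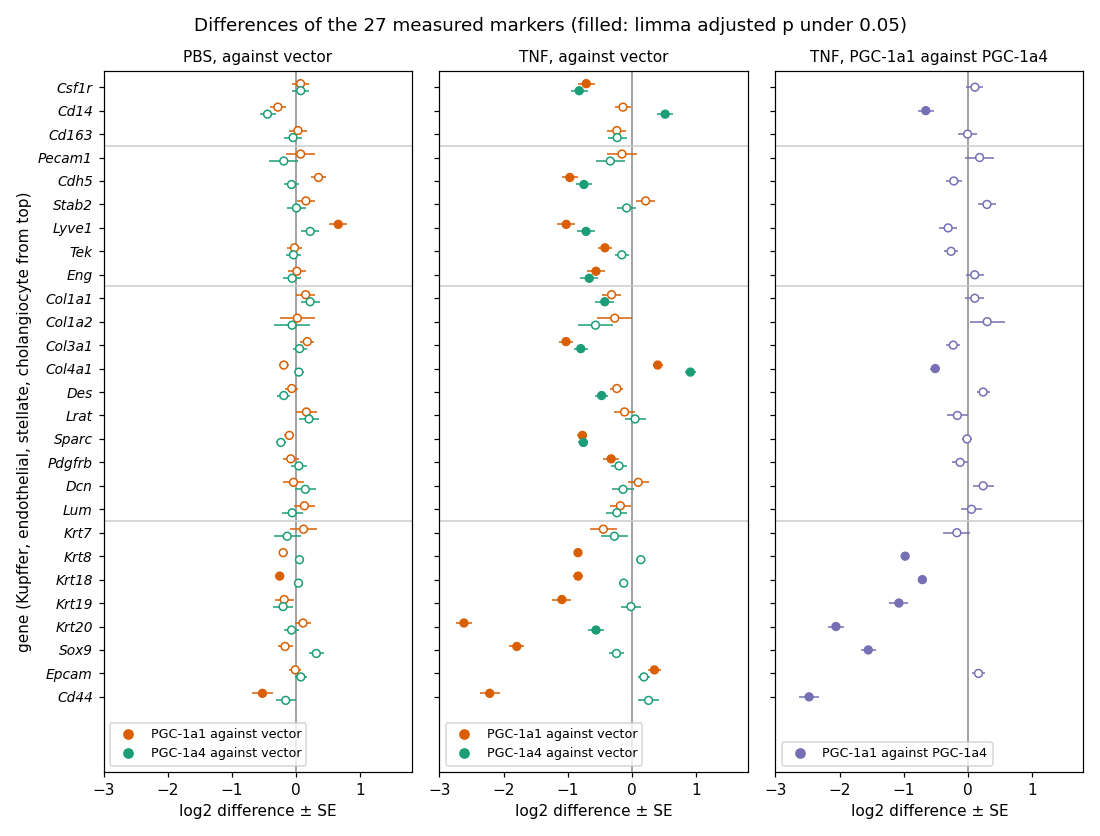
Log2 difference ± SE (limma, 3 arrays per group) of the 27 measured markers between virus arms, grouped as Kupffer, endothelial, stellate and cholangiocyte from the top. Filled points passed at an adjusted p under 0.05: few did under PBS, several endothelial and stellate markers were lower with both PGC-1a forms under TNF, and only the lower block separates PGC-1a1 from PGC-1a4 by over 1 log2 unit, down to -2.47 for Cd44.

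Without TNF the arms differed little. PGC-1a1 against vector had 3 of 27 markers past the threshold, where 12% of all genes passed, and PGC-1a1 against PGC-1a4 had 5, where 17.4% passed. PGC-1a4 against vector had 0 in limma, where 0.207% passed, with 3 markers at an unadjusted p under 0.05. These shares are close to or below that of all genes.

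Lyve1 read 7.56, 7.73 and 8.05 with PGC-1a1 under PBS, 7.17, 7.38 and 6.83 with vector and 7.43, 7.17 and 7.43 with PGC-1a4. The PGC-1a1 arrays were above all others, by 0.66 ± 0.14 over vector (adjusted p = 0.00328) and 0.44 ± 0.14 over PGC-1a4 (adjusted p = 0.0354), the opposite side from TNF. Cdh5 was likewise higher than with PGC-1a4 by 0.42 ± 0.12 (adjusted p = 0.0225) and lay 0.35 ± 0.12 over vector (adjusted p = 0.0796). The Lyve1 difference from PGC-1a4 did not pass with the replicate number as a block (adjusted p = 0.0666), with arrays centred on their medians (0.40), without PGC-1a1 replicate 2 or 3 or without any PGC-1a4 replicate (0.30 to 0.48). That of Cdh5 did not pass without PGC-1a1 replicate 3 (0.29), without PGC-1a4 replicate 1 (0.31) or with the mean of its probe sets (0.28).

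Some cholangiocyte markers were a little lower with PGC-1a1 in the absence of TNF. Krt18 read 14.43, 14.51 and 14.49 against 14.76, 14.75 and 14.69 with vector, a difference of -0.26 ± 0.071 (adjusted p = 0.0239), and was lower than with PGC-1a4 by -0.29 ± 0.071 (adjusted p = 0.00716). Krt8 was lower than with PGC-1a4 by -0.25 ± 0.067 (adjusted p = 0.0129) and lay at -0.20 ± 0.067 from vector (adjusted p = 0.0626). Sox9, at 8.0, 8.05 and 8.04 with PGC-1a1 and 8.64, 8.49 and 8.43 with PGC-1a4, differed by -0.49 ± 0.12 (adjusted p = 0.00651). Cd44 was lower than vector by -0.52 ± 0.16 (adjusted p = 0.0382) with overlapping arrays, and it did not pass without vector replicate 2 or 3 or PGC-1a1 replicate 1 or 3 (-0.30 to -0.58). The Krt8 difference from PGC-1a4 did not pass without PGC-1a1 replicate 1 or PGC-1a4 replicate 1 or 3 (each -0.24). The Krt18 difference from vector did not pass without PGC-1a1 replicate 1 (-0.23) or 3 (-0.26) or without vector replicate 1 (-0.24).

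The step with TNF was larger than the step without it for these genes, as tested by the interaction of virus and treatment. With PGC-1a1 against vector, 13 of 27 markers differed in their TNF response, 1 higher and 12 lower, where 25.5% of all genes did (13.4% higher, 12% lower). Krt20 had the largest gap in response, at -2.73 ± 0.17 (adjusted p = 7.17e-09), followed by Cd44 at -1.69 ± 0.23 (adjusted p = 2.47e-05), Lyve1 at -1.68 ± 0.20 (adjusted p = 6.39e-06) and Sox9 at -1.62 ± 0.17 (adjusted p = 1.61e-06). With PGC-1a4 against vector, 10 differed, 2 higher and 8 lower, where 16% of all genes did (11.9% higher, 4.12% lower). Between the 2 forms 9 differed, all lower with PGC-1a1, where 19.8% did (7.18% higher, 12.6% lower). The comparisons share the vector or PGC-1a arrays of both treatments.

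Set against their PBS arrays, the TNF arrays differed in most genes of the table, at 71.3% in the vector arm, 69.6% in the PGC-1a1 arm and 70.2% in the PGC-1a4 arm. Of the 27 markers 18, 18 and 19 passed, or 66.7%, 66.7% and 70.4%, shares close to or below those of all genes. With vector, Lyve1 went from 7.12 ± 0.28 to 10.17 ± 0.11 (SD, n = 3), a difference of 3.05 ± 0.14 (adjusted p = 3.49e-12), and Krt20 from 7.44 ± 0.15 to 9.60 ± 0.14 (SD, n = 3), a difference of 2.15 ± 0.12 (adjusted p = 4.03e-11). With PGC-1a1, Krt20 ran the other way, from 7.55 to 6.98 (-0.57 ± 0.12, adjusted p = 0.000387). Cd44 fell from 9.37 to 7.69 (-1.68 ± 0.16, adjusted p = 5.06e-08) and Sox9 from 8.03 to 6.88 (-1.15 ± 0.12, adjusted p = 1.29e-07). Lyve1 and Krt20 had 1 probe set each, so no further probe set could be set beside their values.

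Cd14 was higher on the TNF arrays in every arm, by 0.64 (vector), 0.78 (PGC-1a1) and 1.60 (PGC-1a4), and Pdgfrb by 0.73, 0.48 and 0.48. With quantile normalization the vector value of Cd14 was 0.18 (adjusted p = 0.148). Cd163 passed as higher in every arm (0.60, 0.34 and 0.42) although it stayed at the bottom of the scale. Its PGC-1a1 call was lost with the replicate number as a block (adjusted p = 0.0579) and without PGC-1a1 PBS replicate 2 or 3 or TNF replicate 1 or 2 (0.26 to 0.30), and its PGC-1a4 call without PGC-1a4 PBS replicate 1 (0.33) or TNF replicate 1 (0.31). Csf1r was higher with vector (0.52) and lower with PGC-1a4 (-0.38), the latter lost without PGC-1a4 PBS replicate 1 (-0.34) or TNF replicate 3 (-0.26). Krt8 and Krt18 were lower in every arm, for Krt8 by -0.35, -0.99 and -0.26 and for Krt18 by -0.22, -0.81 and -0.39. With each array centred on its median, which puts the median of all genes at 0.18 to 0.21 in these comparisons in place of -0.04 to 0.02, the vector values of Krt8 (-0.14) and Krt18 (-0.01) and the PGC-1a4 value of Krt8 (-0.08) did not pass. That scaling gave 6870 genes higher and 4059 lower with vector, in place of 5377 and 5664.

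The endothelial markers went different ways from PBS to TNF. Lyve1 was higher in the PGC-1a arms too, by 1.37 ± 0.14 with PGC-1a1 and 2.11 ± 0.14 with PGC-1a4, and Cdh5 was higher with vector (1.22) and PGC-1a4 (0.54). Stab2 was higher with vector by 0.42 and with PGC-1a1 by 0.48, calls lost without vector PBS replicate 2 or TNF replicate 3 (0.37 and 0.36) and without PGC-1a1 PBS replicate 2 (0.32). Eng was lower with PGC-1a1 (-0.39) and PGC-1a4 (-0.43), and these calls were lost without PGC-1a1 PBS replicate 1 or 2 or TNF replicate 1 (-0.31 to -0.38) and without PGC-1a4 PBS replicate 2 (-0.37). Pecam1 was lower with PGC-1a1 (-0.64) and PGC-1a4 (-0.56), and did not pass without PGC-1a1 PBS replicate 3 or TNF replicate 2 or 3 (-0.54 to -0.57) or without any PGC-1a4 PBS replicate or TNF replicate 1 (-0.29 to -0.60). Tek was lower with PGC-1a1 (-0.29), which did not pass without PGC-1a1 PBS replicate 1 or 3 or TNF replicate 2 or 3 (-0.22 to -0.28).

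Among stellate markers, Col3a1 was higher with TNF in the vector arm (0.81 ± 0.11, or 0.25 and not past the threshold as the mean of its probe sets) and lower with PGC-1a1 (-0.39 ± 0.11), and Sparc was higher with vector (0.59 ± 0.079). Col4a1 was lower with vector (-0.94) and PGC-1a1 (-0.34). Col1a1 was lower with PGC-1a1 (-0.46, lost at -0.38 without PGC-1a1 TNF replicate 1) and PGC-1a4 (-0.64). Lrat, the enzyme that esterifies retinol, was lower in every arm (-0.37, -0.65 and -0.53), and its vector call was lost without vector PBS replicate 1 or TNF replicate 1 or 3 (-0.23 to -0.30). Dcn, a small matrix proteoglycan, was lower with vector (-0.42, lost without any vector PBS replicate or TNF replicate 3, at -0.30 to -0.44) and PGC-1a4 (-0.70). With PGC-1a4 Col1a2 (-0.65) and Des (-0.31) were lower, and Col1a2 did not pass without any PGC-1a4 PBS replicate or TNF replicate 2 (-0.23 to -0.67).

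Of the cholangiocyte markers, Krt19 was higher with TNF in the vector (0.61) and PGC-1a4 (0.80) arms, Sox9 with vector (0.47) and Krt20 also with PGC-1a4 (1.66). Cd44 was higher with PGC-1a4 (0.43), a call lost without PGC-1a4 PBS replicate 2 or TNF replicate 1 or 2 (0.38 to 0.43) and turned with quantile normalization (-0.046). The brightest probe set of Epcam was lower in every arm (-2.61, -2.25 and -2.50). With arrays centred on their medians the calls of Eng, Pecam1, Tek, Col1a2 and Des, those of Csf1r and Lrat with PGC-1a4, those of Lrat and Dcn with vector and those of Col1a1, Col3a1 and Col4a1 with PGC-1a1 were lost. Lum and Krt7 passed in none of the comparisons of treatment or virus.

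Probe sets of a gene often went opposite ways between the treatment sets. Of 6488 genes with several probe sets, 1670 (25.7%) had probe sets past the threshold in opposite directions for TNF against PBS with vector. There were 161 (2.48%) for PGC-1a1 against vector under TNF and 3 (0.0462%) under PBS. Opposite calls need probe sets that pass, and 71.3%, 41.3% and 12% of all genes passed in these comparisons. The shares are thus not on an equal footing. Epcam was among the 1670, and its brightest probe set was lower by -2.61 ± 0.097 on the vector TNF arrays and the other higher by 2.69 ± 0.14. Cdh5 (1.22 ± 0.12 and -1.20 ± 0.17) and Csf1r (0.52 ± 0.13 against -1.55 ± 0.15 and -0.68 ± 0.13) were others. On the same arrays Cyp2e1, a hepatocyte cytochrome P450, was higher by 4.35 ± 0.19, while Hnf4a (-2.78 ± 0.10) and Fgb (-3.07 ± 0.13) were lower. Of the 18 hepatocyte genes 5 were higher and 9 lower (77.8%, where 71.3% of all genes passed). The lymphocyte genes Ms4a1 and Cd3e were lower by -1.69 ± 0.20 and -0.89 ± 0.12. In their list of 11 leukocyte genes 1 was higher and 3 were lower (36.4%). The part of the array set in the differences between treatments, and in the interactions, cannot be told apart from that of TNF.

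**Figure D4:**
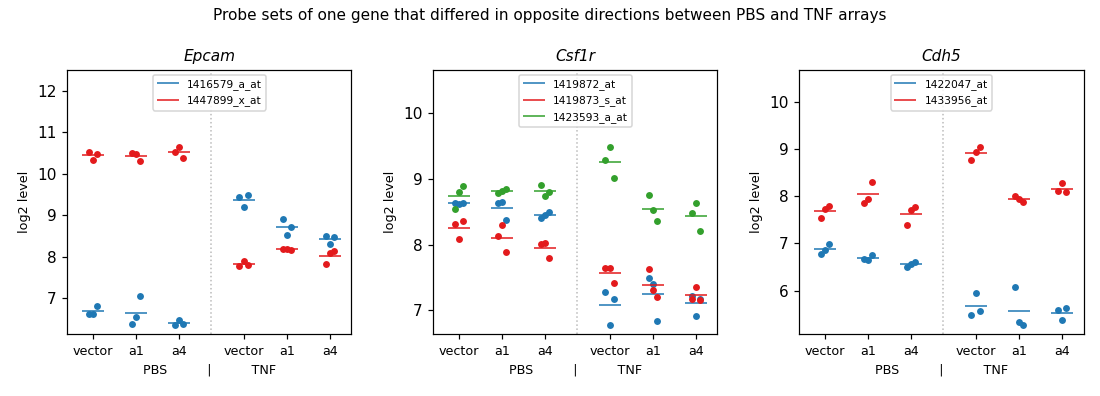
Log2 level of each probe set of Epcam, Csf1r and Cdh5 on the 18 arrays, by virus and treatment; points are arrays, horizontal ticks group means, and colours probe sets. From PBS to TNF with vector, probe sets of a gene part ways, for Epcam by -2.61 on its brightest probe set and by 2.69 on the other.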

How the data were processed

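Biotin-labelled cRNA of 18 cultures was measured on Affymetrix mouse arrays, per the labels' protocols. The deposited values are log2 levels that the authors made with RMA and affy, per the submitters' processing notes, with tool versions not given in the sources used here. Part of the table was used, since it ends inside a row, and 1 of 33246 rows was dropped. Of the 33245 probe sets 25951 named 1 gene in the platform annotation, 686 named several and 6608 none, and 25803 matched a RefSeq identifier (GRCm38.p6). The brightest probe set stood for each of 15491 genes, of which 6488 had several. Groups came from the labels. limma 3.58.1 (R 4.3.3) fitted 1 mean per group to all 18 arrays (12 residual degrees of freedom, constant prior), with two-sided tests in 12 contrasts, Benjamini-Hochberg adjustment over the genes of a contrast and a threshold of 0.05. The fit was tested on simulated data. The markers, the lists and the tests were chosen with earlier results of these data known. Every member past the threshold is named, and of other lists at most the 3 genes with the smallest adjusted p in a contrast, with Alb named and its partner Ttr not analysed here. Hepatocyte genes are also named where their order by replicate is described. Results were recomputed with other moderation, array weights, fewer arrays, quantile or median scaling, a replicate block, the mean of probe sets, a stricter threshold (0.01), without each array in turn, and without dim genes (17 markers passed that filter). The number of arrays limits the precision. Plots were made in Python 3.11.15 with matplotlib 3.10.9.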

Additional observations from a re-analysis of the deposited data

Results flagged for a closer look

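Each marker below differed between arms in its response to TNF, tested as an interaction in limma at an adjusted p under 0.05; values are differences between the log2 TNF-minus-PBS responses. Each rests on a comparison of TNF with PBS arrays, and so carries whatever separates the array sets.

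Among cholangiocyte markers, the response of PGC-1a1 was below that of vector and below that of PGC-1a4 for Krt20 (-2.73 and -2.24), Cd44 (-1.69 and -2.11), Sox9 (-1.62 and -1.07), Krt19 (-0.91 and -1.09), Krt8 (-0.64 and -0.72) and Krt18 (-0.58 and -0.42). The response of PGC-1a4 was below that of vector for Sox9 (-0.56), and this call was lost without any of 6 single arrays (-0.47 without vector PBS replicate 1).

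Among endothelial markers, PGC-1a1 was below vector for Lyve1 (-1.68), Cdh5 (-1.32) and Eng (-0.57), and PGC-1a4 was below vector for Lyve1 (-0.94), Cdh5 (-0.68) and Eng (-0.61). PGC-1a1 was below PGC-1a4 for Lyve1 (-0.74) and Cdh5 (-0.64). With the mean of probe sets the Cdh5 response no longer passed for PGC-1a4 against vector (-0.25) or for PGC-1a1 against PGC-1a4 (-0.38). Eng did not pass on the compared arrays alone in either comparison (-0.57 and -0.61), nor without most single arrays (-0.44 to -0.61 and -0.47 to -0.66).

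Among Kupffer markers, the response of Csf1r was below that of vector with PGC-1a1 (-0.78) and PGC-1a4 (-0.89), and with the mean of its probe sets neither difference passed (-0.19 and -0.24). Cd14 responded more with PGC-1a4 than with vector (0.96), and less with PGC-1a1 than with PGC-1a4 (-0.82).

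Among stellate markers, the responses of Col3a1 (-1.20 and -0.85) and Sparc (-0.67 and -0.52) were below that of vector with PGC-1a1 and PGC-1a4, those of Col4a1 were above it (0.59 and 0.87), and Col1a1 was below vector with PGC-1a4 (-0.64), a call that most left-out arrays ended (-0.48 without PGC-1a4 TNF replicate 1).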

How the results depend on the processing

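Over 12 comparisons 130 marker calls were made. Set against every alternative except the stricter threshold, they gave 1991 values, of which 1817 kept direction and side of the threshold. Of the rest, 169 kept only the direction and 5 turned. The 5 were, with the mean of a gene's probe sets, Csf1r (-0.57) and Epcam (0.038) for TNF against PBS with vector, Cdh5 (-0.24) for TNF against PBS with PGC-1a4 and Epcam (-0.15) for PGC-1a1 against vector under TNF, and, with quantile normalization, Cd44 (-0.046) for TNF against PBS with PGC-1a4. All 8 calls of PGC-1a1 against PGC-1a4 under TNF passed in every setting, as did 9 of 11 for PGC-1a4 against vector. Of the 16 for PGC-1a1 against vector, 12 passed in every setting that tested them, among them Tek, which the filter on dim genes left untested.

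Under PBS the counts moved more. PGC-1a1 against vector had 3 markers called as reported, 6 with array weights, 6 with quantile normalization, 5 with dim genes left out, and 1 on the compared arrays alone or at an adjusted p of 0.01; without 1 array it had 1 to 3, the 1 without PGC-1a1 replicate 1 or 3. PGC-1a4 against vector had 0, 1 with trend and robust moderation, 3 with array weights, and 0 to 1 without 1 array, the 1 without vector replicate 1. PGC-1a1 against PGC-1a4 had 5, 2 at an adjusted p of 0.01, and 2 to 4 without 1 array, the lowest without PGC-1a4 replicate 1. The TNF response of PGC-1a4 against vector had 10, and 6 at an adjusted p of 0.01. The cause was not tested.

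Over all genes, same-numbered arrays did not stand out. Their deviations correlated at -0.135 to 0.227 under PBS and -0.080 to 0.040 under TNF, and those of other arrays at -0.251 to 0.302 and -0.041 to 0.083. Some genes differed from this. Under PBS, Arg1, Apoa2, Apoc3, Hpd, Cyp2e1, Cyp3a11 and Rbp4 were lowest on replicate 2 in each arm. The other measured hepatocyte genes, Fga among them, were not, and of the markers only Stab2 was. Arg1 read 10.40, 9.13 and 9.93 with vector, 11.23, 9.90 and 10.78 with PGC-1a1 and 10.18, 9.27 and 9.81 with PGC-1a4. Whether same-numbered arrays share a preparation was not tested. With the replicate number as a block, 16 markers were called for PGC-1a1 against vector under TNF (16 without it), 4 under PBS (3) and 4 for PGC-1a1 against PGC-1a4 under PBS (5). Signal near background limits the faint markers.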
